A study of Arabidopsis thaliana with 6 samples.

Results

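Arabidopsis seedlings that overexpress rice OsTOP6A3 were compared directly with seedlings that overexpress rice OsTOP6B, the A3 and B subunits of topoisomerase VI. The comparison takes 4 of the 6 arrays of the series: both arrays titled for the OsTOP6A3 line and both titled for the OsTOP6B line. The 2 wild-type arrays were left out, apart from the control probe sets and 1 alternative fit over all 6 arrays. Every one of the 4 arrays carries RNA of 10-day-old light-grown seedlings of the Columbia ecotype, raised under continuous light on agar-solidified MS medium with sucrose. The series describes its arrays as biological replicates, 2 for each group. The labels name 1 overexpressor for each subunit and give no promoter and no vector control, so subunit and transgenic line cannot be told apart. No annotated probe set of this Arabidopsis array names either rice gene, so the level of the transgenes was not measured here.

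Topoisomerase VI is a type II topoisomerase first known from archaea. Its A subunit cuts the DNA and its B subunit binds ATP, and the enzyme passes one duplex through the break. In Arabidopsis, mutants of the native enzyme are known for few root hairs, reduced endoreduplication and small cells, so genes of root hairs, the cell cycle and the cell wall were examined beside the organelle genes. Plastid-encoded genes supply core subunits of the photosystems, the cytochrome b6f complex, the ATP synthase, the NDH complex and the plastid's own ribosomes and RNA polymerase. Many of them are read as polycistronic transcripts, in which neighbouring genes share an RNA.

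Levels below are log2 of the scaled intensity plus 16, and a difference is the OsTOP6A3 mean minus the OsTOP6B mean on that scale, given with its standard error (n = 2 arrays a line). The floor of this scale is 4.0. Differences understate the change of dim probe sets on it, and single readings near the floor may be background. No probe set differed between the lines after adjustment: 0 of 17059 probe sets (0%) passed an adjusted p of 0.05 in limma, and the lowest adjusted p was 0.755. At an unadjusted p under 0.05 there were 1098 probe sets (6.44%), of which 553 (3.24%) were higher and 545 (3.19%) lower with OsTOP6A3. On the intensities as deposited, without scaling between arrays, there were 317 such probe sets and 78.9% of them were higher with OsTOP6A3, against 50.4% after scaling. In that setting the median difference of all probe sets was 0.15, against 0.001 after scaling. Left out in turn, a single array changed the count at an unadjusted p under 0.05 from 1098 to 546 without OsTOP6A3 replicate 1, to 510 without OsTOP6A3 replicate 2 and to 3174 without OsTOP6B replicate 1. All genes named below therefore have values and unadjusted p-values but no call.

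Pairs of single arrays were compared like for like. The median absolute difference was 0.12 between the OsTOP6A3 replicates and 0.19 between the OsTOP6B replicates. For OsTOP6B replicate 1 it was 0.14 against either OsTOP6A3 array, and for OsTOP6B replicate 2 it was 0.20 against either. At least 2-fold differences were found for 56 probe sets between the OsTOP6A3 replicates, for 110 between the OsTOP6B replicates, and for 67 to 162 in the 4 pairs of arrays that cross the lines. OsTOP6B replicate 2 gave the pairs with 145 and 162, and replicate 1 those with 67 and 72. OsTOP6A3 replicate 1 correlated with OsTOP6B replicate 1 across probe sets at r = 0.989, above the 0.983 between the OsTOP6B replicates, while the OsTOP6A3 replicates correlated at 0.991. Probe sets within an array are not independent of each other, so these values describe the arrays only. The 95% interval of the difference had a median half-width of 0.36 and lay within 2-fold in both directions for 16533 probe sets (96.9%), and within 1.5-fold for 11586 (67.9%).

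**Figure D1:**
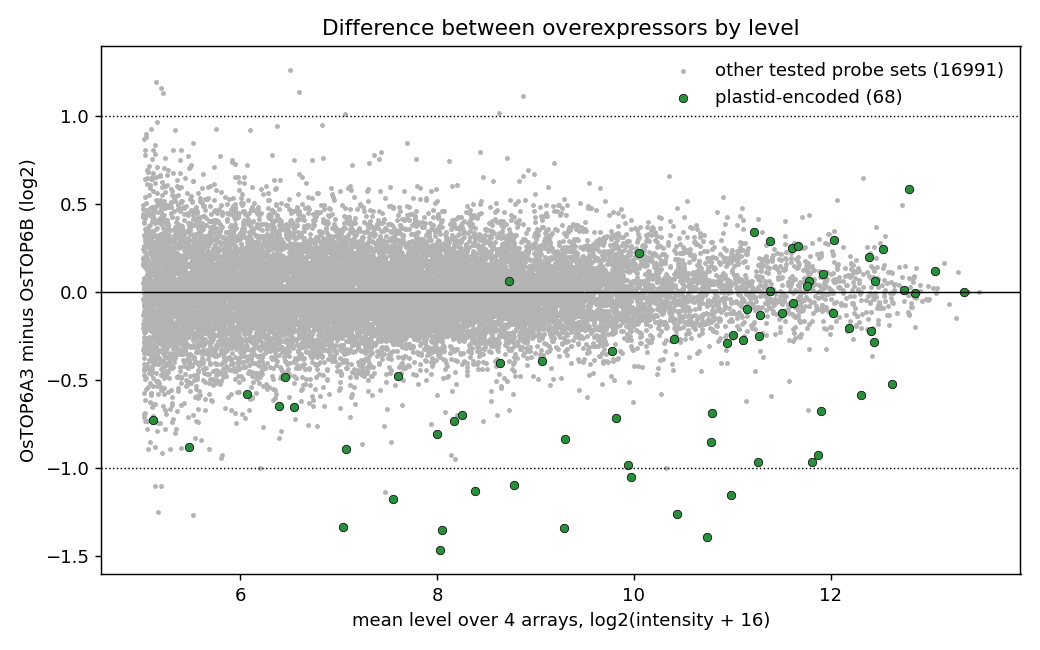
Difference between the lines (OsTOP6A3 minus OsTOP6B, log2 scale) against the mean level on the 4 arrays, 1 point per tested probe set, with the 68 plastid-encoded genes in green and dotted lines at 2-fold. Most points lie close to 0, and 11 plastid-encoded genes are among the 16 probe sets that are at least 2-fold lower with OsTOP6A3.

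Of the 16 probe sets at least 2-fold lower with OsTOP6A3 (0.0938% of those tested), 11 belonged to plastid-encoded genes, namely ndhE, rpl16, ndhJ, accD, ndhG, atpH, ycf3, psaA, rps15, psaC and psbA. The array measures 69 plastid-encoded genes, of which 68 passed the filter on dim probe sets and ndhF did not. Their median difference was -0.40, against 0.001 for all probe sets, with 50 of 68 lower and 18 higher. An unadjusted p under 0.05 was reached by 30 lower (background 3.19%) and 0 higher genes (3.24%). The arrays of the lines did not overlap for 35 genes lower with OsTOP6A3 (background 19.2%) and for 4 genes higher (19.1%). In RNA of whole seedlings, fewer cells or plastids and less RNA in each cannot be told apart.

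One OsTOP6B array carried much of the size of this difference. The median level of the 68 genes was 10.80 and 10.60 on the OsTOP6A3 arrays, and 11.43 and 10.99 on the OsTOP6B arrays. OsTOP6B replicate 1 read above replicate 2 for 61 of 68 genes, with a median gap of 0.42, as large as the median difference between the lines. Without OsTOP6B replicate 1 the median difference was -0.13 and 43 of 68 genes were lower. Without OsTOP6B replicate 2 it was -0.64 and 61 of 68 were lower. The OsTOP6A3 replicates also differed, with replicate 1 above replicate 2 for 53 genes and a median gap of 0.17. On OsTOP6B replicate 1 the control probe set for 25S ribosomal RNA had a deposited intensity of 315, against 46.7 on replicate 2 and 53.9 and 66 on the OsTOP6A3 arrays. The median deposited intensity of 12 Bacillus spike control probe sets was 119.65 on that array, against 65.9 on replicate 2 and 50 and 74.45 on the OsTOP6A3 arrays. The part of that array's RNA make-up or preparation in the plastid difference was not tested.

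**Figure D2:**
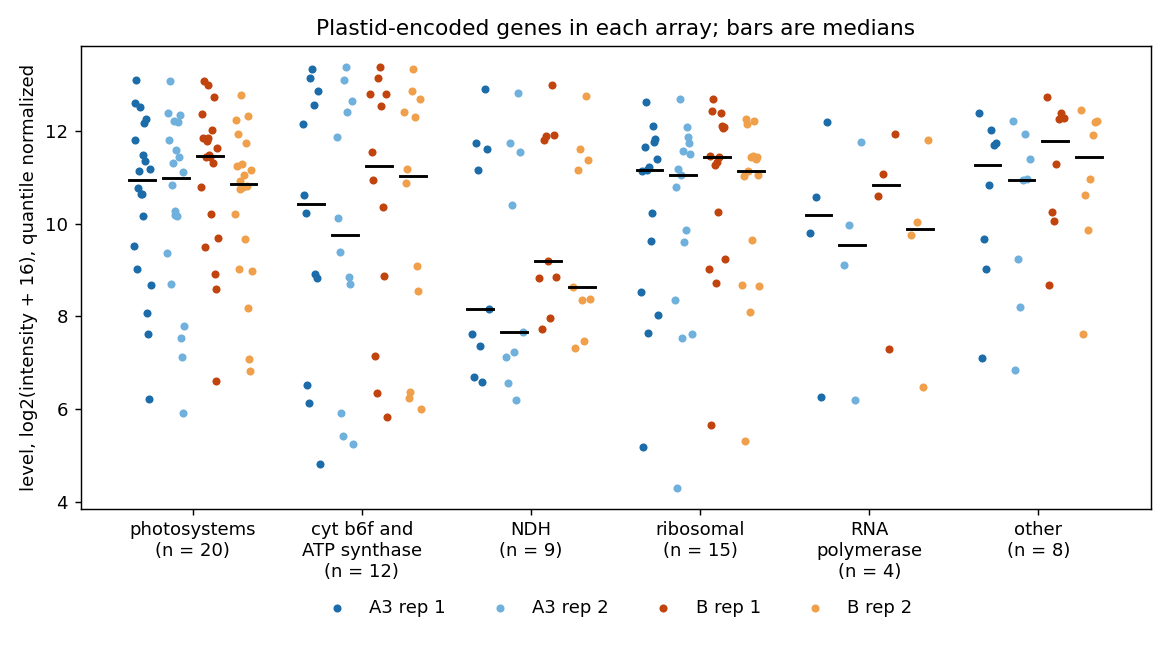
Level of the plastid-encoded genes on each of the 4 arrays (log2 intensity plus 16), 1 point per gene, grouped by complex, with medians. OsTOP6B replicate 1 has the highest overall median, 11.43, and the OsTOP6A3 arrays have 10.80 and 10.60.

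The difference was larger among the dimmer plastid genes. Among the 34 genes with a mean level of 10.98 or less, the median difference was -0.77 and 32 were lower. The arrays did not overlap for 26 lower (background 19.2%) and 0 higher genes (19.1%). Among the 34 brighter genes the median difference was -0.03 and 18 were lower. There the arrays did not overlap for 9 lower and 4 higher genes, against the same background. Without OsTOP6B replicate 1 these medians were -0.53 and 0.09, and without OsTOP6B replicate 2 they were -1.10 and -0.28. Probe sets of other genes in the same ranges of level had median differences of 0.00 and 0.01, over 15955 and 646 probe sets. The dimmer range held most of the 17059 tested, and quantile normalization keeps such a median near 0. Its value is therefore no check on the plastid genes. The gap between the OsTOP6B replicates ran the same way, with a median of 0.57 among the dimmer and 0.31 among the brighter plastid genes.

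Genes of the NDH complex, which carries electrons around photosystem I, had the lowest median of the plastid groups, at -0.89 over 9 genes. Without overlap, 6 of them were lower (background 19.2%) and 0 higher (19.1%). That median ran from -1.10 without OsTOP6B replicate 2 to -0.58 without OsTOP6A3 replicate 2, and was -0.70 without OsTOP6B replicate 1. The level of ndhJ was 7.62 and 7.12 with OsTOP6A3 and 8.82 and 8.62 with OsTOP6B, a difference of -1.35 ± 0.19. For ndhG it was 6.57 and 6.18 against 7.96 and 7.47, a difference of -1.34 ± 0.21. The 4 arrays read ndhE at 7.37 and 7.23 against 9.19 and 8.35, a difference of -1.47 ± 0.26. Both OsTOP6A3 arrays were below both OsTOP6B arrays for each of these genes. Values near 0 stood beside them in the same complex: ndhI differed by -0.01, ndhA by -0.06 and ndhC by 0.25.

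Ribosomal protein genes of the plastid had a median difference of -0.28 over 15 genes, with 8 lower (background 19.2%) and 0 higher without overlap (19.1%). It was -0.05 without OsTOP6B replicate 1, -0.57 without OsTOP6B replicate 2 and -0.19 without OsTOP6A3 replicate 2. Among them rpl16, a protein of the large subunit, had the lowest unadjusted p of all plastid genes. Its level was 10.23 and 9.86 with OsTOP6A3 and 11.43 and 11.45 with OsTOP6B, a difference of -1.40 ± 0.16 (limma, unadjusted p = 7.38e-05, adjusted p = 0.755). The OsTOP6B replicates were nearly equal for this gene, and the difference stayed between -1.57 and -1.20 when each array was left out. Next by that p came rps4 and rps15, of the small subunit, with differences of -0.93 and -1.13. The ribosomal genes rps19, rpl22 and rpl36 differed by 0.03, 0.06 and 0.003.

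Photosystem genes had a median difference of -0.27 over 20 genes, with 13 lower and 7 higher. Lower without overlap were 7 genes, or 35% (background 19.2%). Higher without overlap were 4, or 20% (background 19.1%), namely psbK, psbJ, psbF and psbE. An unadjusted p under 0.05 was reached by 7 lower (background 3.19%) and 0 higher genes (3.24%). The level of psaA, a core protein of photosystem I, was 10.64 and 10.18 with OsTOP6A3 and 11.84 and 11.29 with OsTOP6B, a difference of -1.16 ± 0.23. For psbA, the gene of the D1 reaction centre protein of photosystem II, it was 9.51 and 9.37 against 10.79 and 10.20, a difference of -1.06 ± 0.21. Both genes read lower on both OsTOP6A3 arrays. The other direction was found for psbE and psbF, the subunits of cytochrome b559, which differed by 0.34 ± 0.19 and 0.30 ± 0.15. For psbM, a small subunit of photosystem II, the difference of 0.58 ± 0.34 rested on OsTOP6B replicate 2, at 11.94 against 13.10, 13.08 and 13.08 on the other arrays. Without OsTOP6B replicate 1 the median of the photosystem genes was 0.03, and without replicate 2 it was -0.56.

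Genes of the cytochrome b6f complex and the ATP synthase had a median difference of -0.53 over 12 genes. Without overlap, 6 of them were lower (background 19.2%) and 0 higher (19.1%). The ATP synthase gene atpH, for the membrane ring, read 10.22 and 9.38 with OsTOP6A3 and 10.94 and 11.19 with OsTOP6B, a difference of -1.26 ± 0.27. Of the cytochrome b6f genes, petD differed by -0.88 ± 0.18, whereas petA and petB differed by 0.06 and 0.01. These genes lie far apart in level. The readings of petD were 4.82 and 5.24 with OsTOP6A3, not far above the floor of 4.0, and 5.83 and 6.00 with OsTOP6B. The line means of petA and petB were 12.42 to 12.75. The group's median was -0.11 without OsTOP6B replicate 1 and -0.21 without OsTOP6A3 replicate 2. All 4 genes of the plastid RNA polymerase were measured, with a median of -0.46, and rpoB alone was lower without overlap (background 19.2%), by 0.66. Their median was -0.04 without OsTOP6B replicate 1, -0.94 without OsTOP6B replicate 2 and -0.17 without OsTOP6A3 replicate 2.

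The remaining 8 plastid genes were all lower with OsTOP6A3, 7 of them without overlap (background 19.2%), at a median of -0.82. With each array left out, their median ran from -1.03 without OsTOP6A3 replicate 1 to -0.55 without OsTOP6A3 replicate 2. The gene for the large subunit of Rubisco, rbcL, read 9.67 and 9.23 against 10.25 and 10.62, a difference of -0.99 ± 0.20. Its neighbour accD, for a subunit of the plastid acetyl-CoA carboxylase, read 9.02 and 8.21 against 10.06 and 9.86, a difference of -1.34 ± 0.26. Both were lower on each OsTOP6A3 array, as were clpP, a protease subunit, by 0.97 and ccsA, which acts in cytochrome c maturation, by 0.68.

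**Figure D3:**
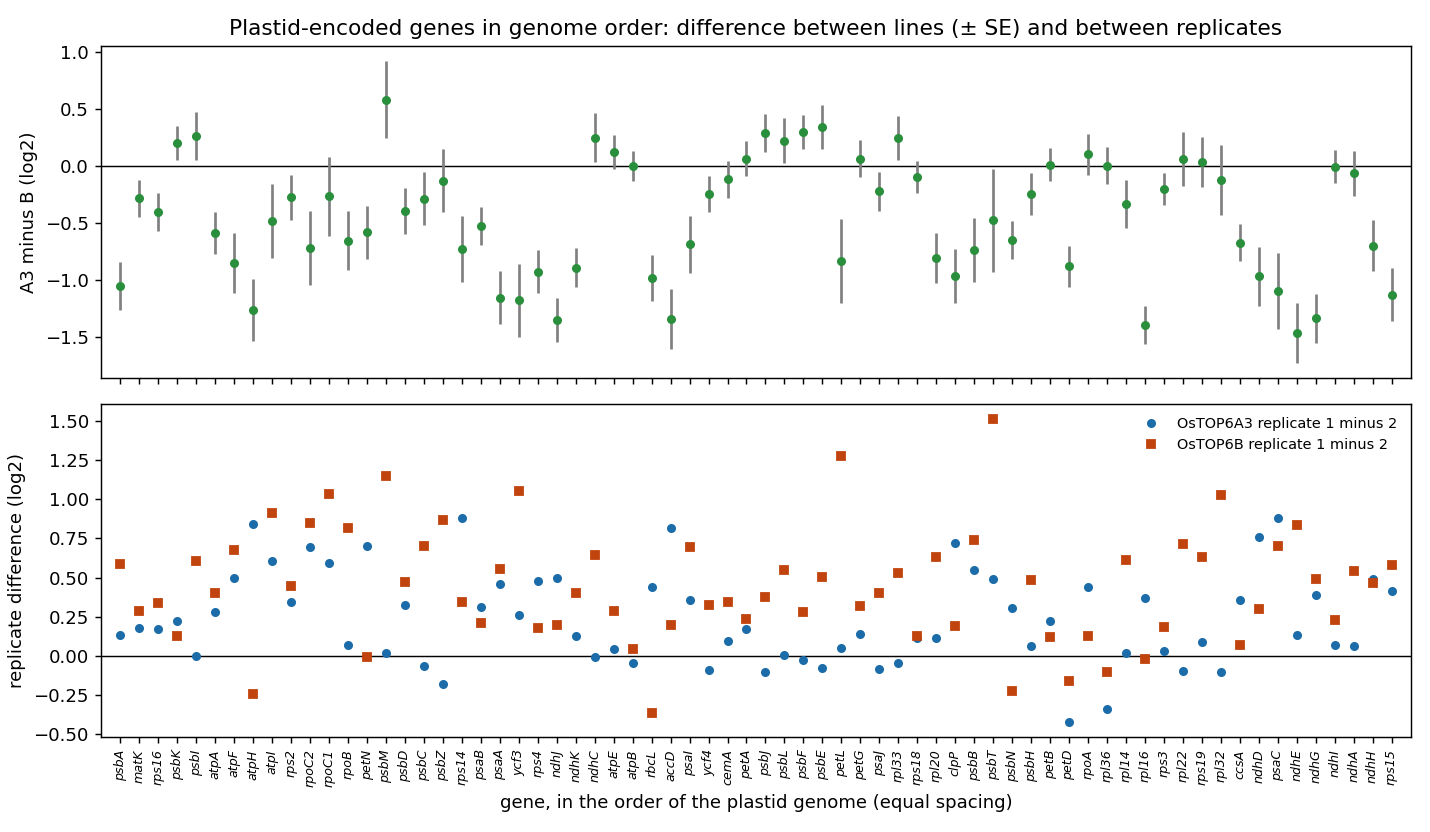
Upper panel, difference between the lines (OsTOP6A3 minus OsTOP6B, log2 scale, bars ± SE) for each plastid-encoded gene in its order along the plastid genome; lower panel, difference between the replicates of each line (replicate 1 minus 2). The psbE, psbF, psbL and psbJ genes lie between 0.22 and 0.34, the genes from ndhD to rps15 between -1.47 and -0.01, and OsTOP6B replicate 1 reads above replicate 2 for 61 genes.

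Neighbouring plastid genes had like values in some clusters and unlike values in others. The adjacent psbE, psbF, psbL and psbJ differed by 0.22 to 0.34, all above 0. The adjacent psaA, psaB and rps14 differed by -1.16 to -0.53, and atpI, atpH, atpF and atpA by -1.26 to -0.48. The pair psbD and psbC differed by -0.39 and -0.29, and rpoB, rpoC1 and rpoC2 by -0.72 to -0.27. In contrast, ndhC at 0.25 lies beside ndhK at -0.89 and ndhJ at -1.35. The genes from psbB to petD ran from -0.88 for the dim petD to 0.01 for the bright petB. The ribosomal genes from rps19 to rpl36 ran from -1.40 to 0.06, with rpl16 at -1.40 beside rps3 at -0.20. The 8 neighbours from ndhD to rps15 had a median of -1.03 and ran from -1.47 for ndhE to -0.01 for ndhI. Gene order was taken from the RefSeq annotation of the organism.

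Genes encoded in the mitochondrion were fewer, with 8 of 11 above the filter and a median difference of -0.17, which was -0.03 without OsTOP6A3 replicate 2 and also without OsTOP6B replicate 2. Of these, nad4, a subunit of respiratory complex I, read 7.95 and 7.46 with OsTOP6A3 and 8.79 and 8.53 with OsTOP6B, a difference of -0.95 ± 0.20 (limma, unadjusted p = 0.00223). It was lower on both OsTOP6A3 arrays, and the complex I gene nad9 differed by -0.34. The cytochrome oxidase gene cox2 differed the other way, by 0.41 ± 0.18.

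Nuclear genes for the same photosynthetic machinery had medians near 0. The 3 light-harvesting genes measured, LHCB4.1, LHCB4.2 and LHCB4.3, differed by 0.04, -0.07 and 0.10, and 0 of them reached an unadjusted p under 0.05. The 8 nuclear genes of the photosystems and the Calvin cycle had a median of 0.08, between -0.04 and 0.13 with each array left out, and 0 of 8 reached that p. RCA, the activase of Rubisco and the brightest nuclear gene, read 13.08 and 13.02 against 12.91 and 13.14, with overlapping arrays. PYK10, an abundant beta-glucosidase of the root, read 12.80 and 12.89 against 12.97 and 12.72, also overlapping. Shoot and root RNA of the labelled seedlings were thus both present, RCA being the single shoot marker measured, and 3 of 3 flower and pollen markers were under the filter.

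Root hair genes read lower with OsTOP6A3, without a call for any. The list, drawn from general knowledge of the genome, holds 25 loci, of which 5 have a probe set annotated to them alone; EXPA7 and EXPA18 are named in the annotation and the other 3 are given by locus. All 5 measured genes had arrays that did not overlap (background 19.2%), 4 reached an unadjusted p under 0.05 (background 3.19%), and the median difference was -0.48. EXPA18, an expansin of root hair cells, read 7.17 and 7.14 with OsTOP6A3 and 7.64 and 8.01 with OsTOP6B, a difference of -0.67 ± 0.16 (limma, unadjusted p = 0.00518). EXPA7, the second root hair expansin, read 7.55 and 7.26 against 7.86 and 7.95, a difference of -0.50 ± 0.15. AT1G30870 read 8.79 and 8.70 against 9.15 and 9.28, a difference of -0.48 ± 0.14. For these genes both OsTOP6A3 arrays lay below both OsTOP6B arrays. AT3G49960 and AT4G26010 differed by -0.40 ± 0.17 and -0.24 ± 0.14.

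Left out in turn, single arrays moved the median of the root hair genes between -0.57 and -0.35. Unlike the plastid genes, they were not highest on OsTOP6B replicate 1, where their median level was 7.86 against 8.01 on replicate 2 and 7.55 and 7.26 with OsTOP6A3. The 9 markers of the root body had a median difference of 0.00. At an unadjusted p under 0.05, AT5G17820 was lower by 0.47 (background 3.19%) and AT2G39040 higher by 0.81 (3.24%). Without overlap, 2 of the 9 were lower (background 19.2%) and 3 higher (19.1%). The difference between the root hair and root body lists was not tested.

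Cell wall loosening genes went both ways. Of 12 expansins, 2 were higher and 3 lower at an unadjusted p under 0.05, against 3.24% and 3.19% of all probe sets. Their median was -0.01, and -0.14 without OsTOP6A3 replicate 1. The higher genes were EXPB3 at 0.54 ± 0.16 and EXPA15 at 0.42 ± 0.15, and the lower were EXPA7, EXPA18 and the expansin-like EXLB1 at -0.46 ± 0.13. Of 8 xyloglucan endotransglucosylases, which cut and rejoin xyloglucan, 3 were lower (background 3.19%) and 0 higher (3.24%) at that p. The median was -0.13, and it was -0.33 without OsTOP6B replicate 1 and -0.04 without OsTOP6B replicate 2. XTH18 read 7.43 and 7.93 with OsTOP6A3 and 8.34 and 8.87 with OsTOP6B, a difference of -0.93 ± 0.24. XTH33 and XTH26 differed by -0.54 and -0.50. All 3 genes were lower on both OsTOP6A3 arrays.

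The list for topoisomerase VI held 7 loci, of which 4 had a probe set annotated to them alone, so the native enzyme was covered only in part. No measured gene of this list or of the other topoisomerases was called. BIN4, a plant-specific part of the native complex, read 5.42 and 5.42 with OsTOP6A3 and 5.60 and 6.00 with OsTOP6B, a difference of -0.37 ± 0.17 (95% interval -0.78 to 0.03). SPO11-2, a meiotic relative of the A subunit, read 5.66 and 4.84 against 5.28 and 4.35, a difference of 0.43 ± 0.36 with overlapping arrays. AT1G60460 differed by -0.26 ± 0.26, and ATSPO11-1 was under the filter. TOPII, the conventional type II enzyme, read 7.26 and 7.21 against 6.89 and 6.96, a difference of 0.31 ± 0.13 (95% interval -0.01 to 0.62). It was higher on both OsTOP6A3 arrays, and TOP3A and GYRB3 differed by 0.16 and -0.08.

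Genes of the cell cycle and of chromatin gave 1 value at an unadjusted p under 0.05. The 7 cell cycle genes measured were the CDK subunit gene CKS, the Aurora kinase genes AUR1, AUR2 and AUR3, the anaphase-promoting complex genes CDC27a and HBT, and SIM, a CDK inhibitor gene. Neither any of these nor any of 3 genes of DNA replication and repair reached an unadjusted p under 0.05, and the 7 ran from -0.26 for CKS to 0.23 for AUR3. Among 7 histone genes 1 reached it as higher (background 3.24%) and 0 as lower (3.19%). HTB2, a histone H2B gene, was that gene, at 8.49 and 8.62 with OsTOP6A3 and 8.10 and 8.17 with OsTOP6B, a difference of 0.42 ± 0.14. HTB1, HTB11 and HTB4 of the same family differed by 0.12, 0.02 and 0.01. Of the 7 histone genes 6 were higher and 1 lower, at a median of 0.12. Without overlap, 2 were higher (background 19.1%) and 0 lower (19.2%), namely HTB2 and HTR12, which differed by 0.30 ± 0.17.

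Hormone, stress and clock genes gave isolated values. ARR15, a cytokinin-induced response regulator, read 5.66 and 5.61 with OsTOP6A3 and 5.02 and 4.32 with OsTOP6B, a difference of 0.96 ± 0.23 (limma, unadjusted p = 0.00432). The reading of 4.32, on OsTOP6B replicate 2, was near the floor of 4.0, and without that array the difference was 0.65. RR16, the other cytokinin response regulator measured, differed by -0.10 with overlapping arrays. GI, a clock-controlled regulator of flowering, read 7.28 and 7.52 against 7.66 and 8.06, a difference of -0.46 ± 0.18. ARR15 was higher and GI lower on both OsTOP6A3 arrays. Of 8 dehydrin, COR and LEA genes, which accumulate in cold and drought, 1 was higher (background 3.24%) and 1 lower (3.19%) at an unadjusted p under 0.05. They were the near relatives COR15B, which differed by 0.40, and COR15A, which differed by -0.57. COR15A read 4.83 and 4.78 with OsTOP6A3, not far above the floor, against 5.69 and 5.07. Without OsTOP6B replicate 1 the difference of COR15A was -0.25. The 5 salicylate and jasmonate defence genes measured were all lower with OsTOP6A3, at a median of -0.31, but 0 reached an unadjusted p under 0.05, and the median was -0.15 without OsTOP6A3 replicate 1. Of 8 auxin response genes, 6 WRKY factors and 4 anthocyanin and flavonoid genes, 0 reached an unadjusted p under 0.05. The same held for 41 UDP-glycosyltransferases and 12 glutathione transferases. Of 16 cytochrome P450 genes CYP718 alone reached it, at -0.44 ± 0.15, which is 6.25% lower (background 3.19%) and 0 higher (3.24%). Without overlap, 5 of the 16 were lower (background 19.2%) and 0 higher (19.1%).

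**Figure D4:**
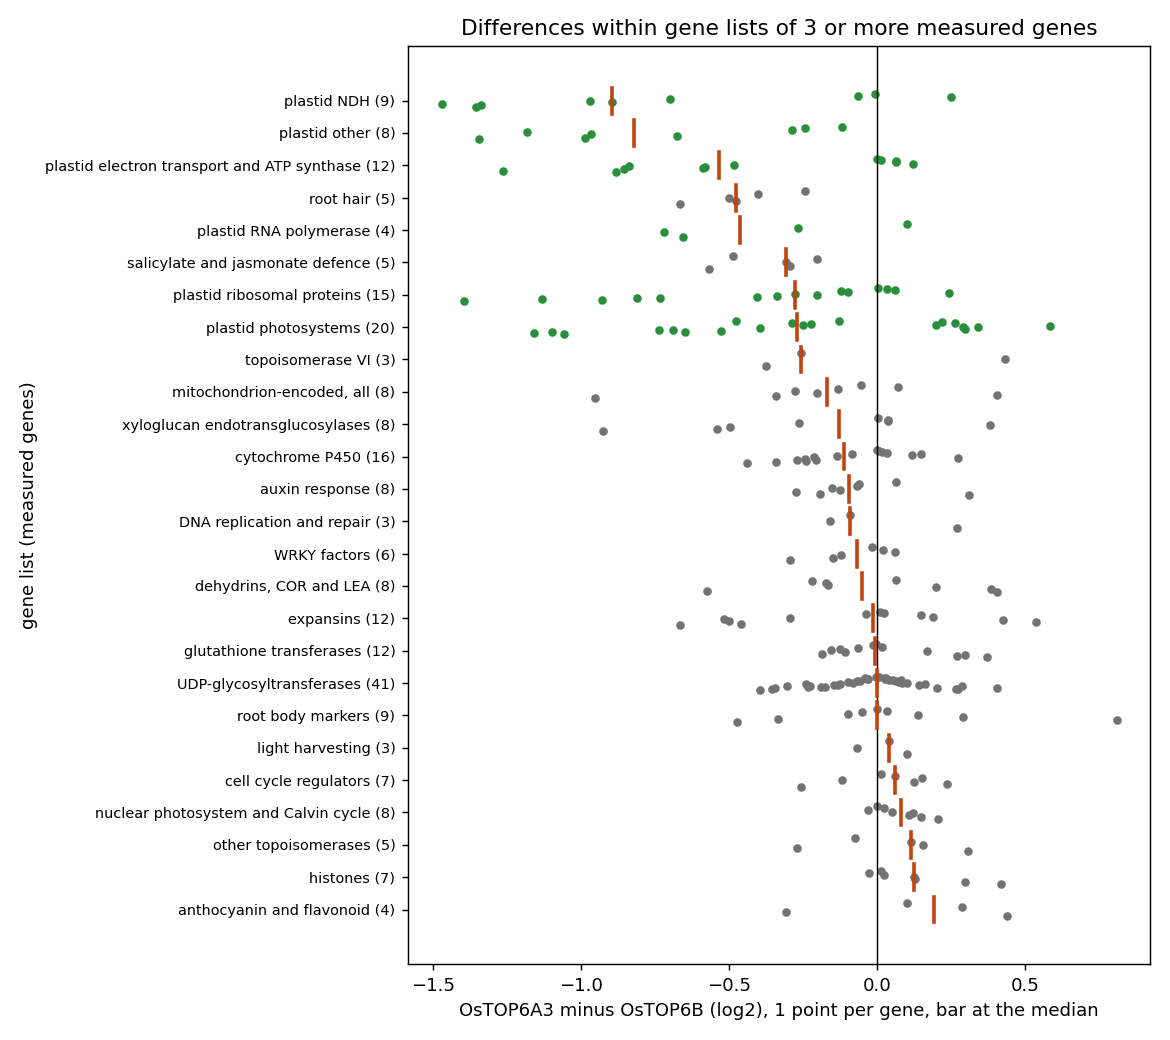
Difference of each measured gene (points) and the median (bar) for each gene list (OsTOP6A3 minus OsTOP6B, log2 scale), with plastid groups in green. The plastid groups and the root hair genes have medians between -0.89 and -0.27, the defence genes have -0.31, and the light-harvesting genes have 0.04.

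Single nuclear genes with the lowest unadjusted p among those at least 1.5-fold apart without overlap were taken in each direction, from 67 higher and 67 lower genes. The background for all probe sets by this rule was 0.68% higher and 0.786% lower, and the rule itself fixes that these genes differ. Higher with OsTOP6A3 was AT5G62210, at 9.32 and 8.96 against 7.97 and 8.27, a difference of 1.02 ± 0.18. AT5G07740 read 5.97 and 5.57 against 4.83 and 4.40, a difference of 1.16 ± 0.21. AT5G15780 read 5.43 and 6.04 against 4.88 and 4.21, a difference of 1.19 ± 0.28. On OsTOP6B replicate 2, AT5G07740 at 4.40 and AT5G15780 at 4.21 were near the floor of 4.0. The other higher genes, AT5G13900, AT4G01890, AT5G47610, AT4G11210, AT4G24860, AT5G53220, AT1G29600, AT4G10390 and AT5G46070, differed by 0.60 to 0.94. Of these, AT5G13900, AT4G01890 and AT4G10390 also had an OsTOP6B array near the floor, at 4.43, 4.40 and 4.49.

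Among the lower nuclear genes, AT5G40590 read 6.79 and 6.82 with OsTOP6A3 and 7.66 and 7.69 with OsTOP6B, so the replicates of each line were close. Its difference was -0.87 ± 0.13 (limma, unadjusted p = 0.000327). OSM34, an osmotin-like protein of osmotic stress and defence, read 10.86 and 10.80 against 11.36 and 11.55, a difference of -0.62 ± 0.14, and had the highest level of the 12 genes. PRX52, named as a peroxidase in the annotation, read 5.18 and 5.04 against 5.62 and 5.86, a difference of -0.63 ± 0.15. For each of these genes the OsTOP6A3 arrays lay below the OsTOP6B arrays. The remaining 9, AT5G19890, AT1G16830, AT3G04490, AT4G33720, AT3G27880, AT5G44820, AT3G47800, AT2G07695 and AT1G71910, differed by -0.93 to -0.64, and a second probe set of AT5G44820 differed by -0.22. The probe set of AT2G07695 is marked as shared by several transcripts, so its value may not be of that gene alone.

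**Figure D5:**
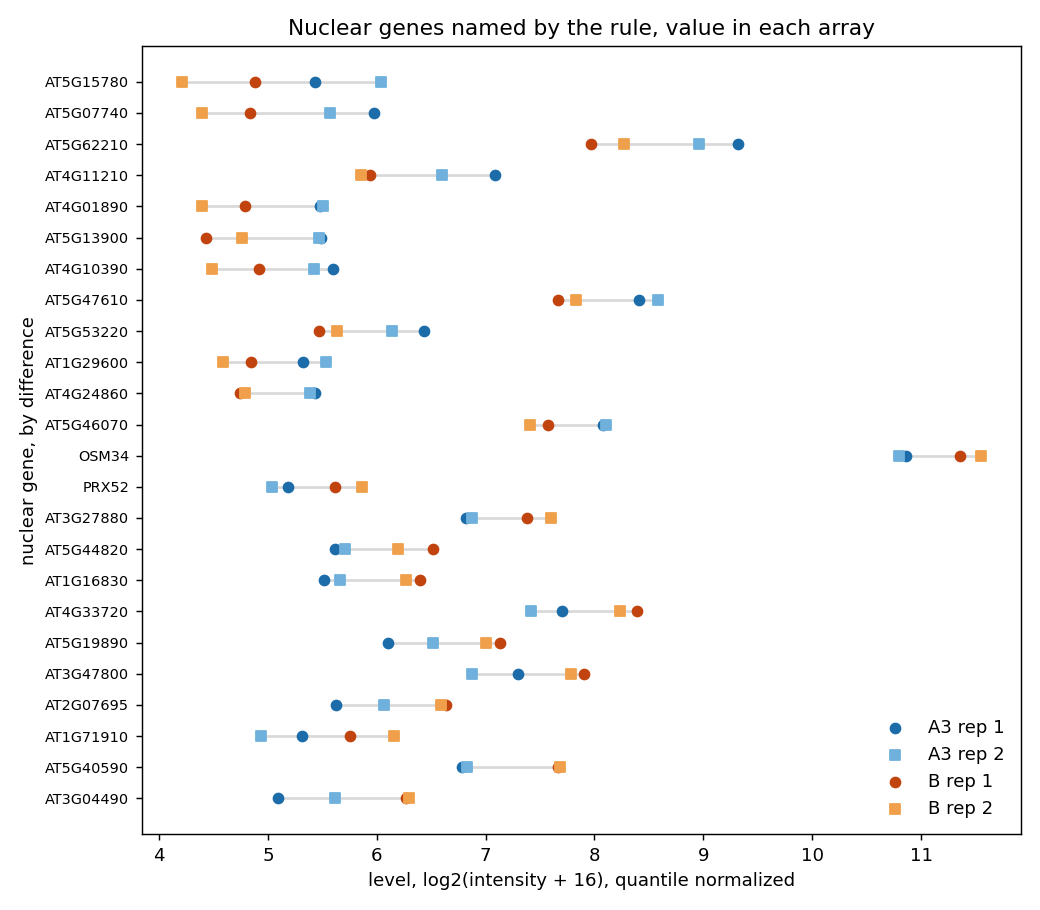
Level of 12 higher and 12 lower nuclear genes on each of the 4 arrays (log2 of intensity plus 16, quantile normalized), 1 point per array, ordered by the difference. The arrays of the lines do not overlap for any gene shown, as the rule requires, and OSM34 at 10.80 to 11.55 has the highest levels.

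Of the 24 probe sets at least 2-fold apart, 8 were higher with OsTOP6A3 (0.0469%) and 16 lower, and 7 in all were of single nuclear genes. Beside the 3 higher genes above they were AT1G01840 at 1.13, AT1G19530 at -1.14, AT4G23760 at -1.10 and CCR2, a cinnamoyl-CoA reductase gene, at -1.10, named here for size after their values were seen. Near the floor of 4.0 were AT1G01840 at 4.10 on OsTOP6B replicate 2, AT4G23760 at 4.09 on OsTOP6A3 replicate 1 and CCR2 at 4.11 on OsTOP6A3 replicate 2. The brightest nuclear genes were nearly equal: GAPC2, a cytosolic glyceraldehyde-3-phosphate dehydrogenase, differed by -0.05 and SAMDC, of polyamine synthesis, by -0.06.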

How the data were processed

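Whole-seedling RNA was hybridised to Affymetrix Arabidopsis arrays. The values the authors deposited are linear intensities, 1 for each probe set of an array. How probes were summarised, and whether arrays were scaled, is not given in the sources used here. Quartiles of the 4 arrays differed by up to 0.54 (log2) as deposited, with median intensities of 95.2, 90.7, 103.5 and 66.2. Of 22810 probe sets, 64 control probe sets were left out. A pseudocount of 16 was added, log2 taken and the 4 arrays quantile normalized, and 5687 probe sets under the 25th percentile of mean level were removed. The remaining 17059 were tested with limma 3.58.1 in R 4.3.3 (OsTOP6A3 against OsTOP6B, two-sided, Benjamini-Hochberg over all). With 2 arrays a line, the number of arrays limits precision.

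Genes were named through the platform's annotation, updated by RefSeq loci: 13513 probe sets had 1 gene, 503 several and 8730 none. Where a gene had several probe sets, the brightest stood for it. The assignment of genes to lists came from symbols and from general knowledge of the families. Named genes were the 12 nuclear genes a direction with the lowest p among those at least 1.5-fold apart without overlap, members of the lists, the 6 brightest genes and those with the widest replicate gaps. The comparison, members and lists were chosen with earlier results of these data known. Alternatives were other pseudocounts, filters and scalings, all 6 arrays in the fit, limma's trend and robust options, the replicate number as a block, and leaving out each array.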

Additional observations from a re-analysis of the deposited data

Results flagged for a closer look

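Some control probe sets, which no comparison above uses, differed between arrays. The control U12639, whose sequence source the files do not describe, had deposited intensities of 496.7 and 484 with OsTOP6A3 and of 323.7 and 365 with OsTOP6B, against 3.1 and 19.2 in the wild type. The control for 25S ribosomal RNA had 315 on OsTOP6B replicate 1, against 46.7 on OsTOP6B replicate 2, 53.9 and 66 with OsTOP6A3, and 23.9 and 53.7 in the wild type.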

How the results depend on the processing

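The count of 0 called probe sets became 1, rpl16, with a pseudocount of 64 and also with limma's trend and robust options, and stayed at 0 in the other settings apart from the block. With the replicate number as a block it became 11, 3 higher and 8 lower with OsTOP6A3, among them rpl16, accD, ndhE, ndhG, ndhJ, psaA, psaC, rps15 and AT5G07740. Deviations of same-numbered arrays correlated at 0.0138 over all probe sets, and the labels tie the numbers to no shared batch. For the plastid genes, however, replicate 1 read above replicate 2 in both lines, for 53 of 68 genes with OsTOP6A3 and 61 of 68 with OsTOP6B. The count at an unadjusted p under 0.05 was 317 on the deposited scale and 510 to 3174 with each array left out. The plastid median ranged from -0.64 to -0.13 with each array left out, and the root hair median from -0.57 to -0.35. The cause of these changes was not tested. Of 1914 values of 155 named genes under the alternatives, 11 passed the adjusted threshold, where no value did in the reported setting. Of 390 values of 30 lists, 38 moved by more than the spread between replicates. Subunit and line cannot be told apart, 2 arrays a line leave few residual degrees of freedom, and probe sets under the filter were not tested.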

Other observations

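Families of nuclear genes defined by the shared letters of their symbols had medians near 0. Over 36 families with at least 5 measured members, 342 genes in all, the median difference ran from -0.26 for the XTH family to 0.22 for genes with symbols in GH.

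Some nuclear genes differed widely between the 2 replicate arrays of a line. PDF1.2b, a plant defensin induced by jasmonate, read 7.81 and 9.06 on the OsTOP6A3 arrays, and AT1G02710 read 6.03 and 4.35. With OsTOP6B, AT5G52950 read 6.11 and 4.51. RAD51B, a recombination gene, read 5.66 and 4.27 with OsTOP6B against 5.40 and 5.45 with OsTOP6A3, and AT4G33730 read 6.29 and 4.80 against 6.29 and 6.28. In both genes OsTOP6B replicate 2 was the low array.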
